A study of Mus musculus with 6 samples.

Results

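Cytochrome P450 genes, taken as the gene symbols made of Cyp, a family number, a subfamily letter and a gene number, accounted for 94 of the 24421 genes counted in sorted liver endothelial cells (ECs) of young and aged mice. The young group was 3 C57BL/6J mice of genotype WT at 10 weeks of age, and the aged group was 3 C57BL/6J mice of genotype WT at 127, 131 and 136 weeks, with no treatment named for either group. From each liver, CD31+CD45- cells were sorted by flow cytometry, a gate for cells that carry an endothelial surface protein and lack the pan-leukocyte protein CD45, and their RNA was sequenced in bulk. The symbol pattern leaves out some P450 genes with irregular names, among them Cyp51, the lanosterol demethylase of cholesterol synthesis, which had 145 to 650 counts per library, and the Cyp4a12 pair, which had 0 to 24. The members were divided by where each is best known: 3 from endothelium (Cyp1a1, Cyp1b1 and Cyp26b1), 47 mainly from hepatocytes, 14 from several tissues, 1 from myeloid cells (Cyp4f18) and 29 from other organs or without a settled place.

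P450 enzymes are heme proteins that insert oxygen into lipids, steroids, retinoids and foreign compounds, mostly in the endoplasmic reticulum, with electrons passed on by the reductase Por. Hepatocytes hold the largest and most varied set, with many of the drug- and fatty acid-metabolizing members concentrated around the central vein. Vessel walls use a smaller set, which includes members induced through the aryl hydrocarbon receptor and members that break down retinoic acid.

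The 6 libraries held 23001556 to 31651817 counts, so that 3 counts stood at 0.0948 to 0.130 CPM (counts in proportion to library size) on the raw totals. The levels printed below are CPM on library sizes scaled by the TMM factors, which were 0.964 to 1.11. Lars2 and Rn45s, symbols that collect ribosomal RNA reads, took 4.68% to 5.53% of counts in 4 libraries but only 1.29% in that of young replicate 3 and 0.960% in that of the 127-week mouse, so differences within these library clusters are given beside the pooled ones. The study's methods name only female mice, whereas all 6 libraries held transcripts of the Y-linked genes Ddx3y (79.7 to 102.3 CPM), Uty, Kdm5d and Eif2s3y and no more than 0.203 CPM of Xist, genes looked up after their values were seen. The libraries therefore went against the stated sex in both age groups alike. All 12 endothelial marker genes were detected in each library, with sums of 22870 to 25160 CPM in young and 11610 to 17490 CPM in aged ECs. Markers of other liver cells were also present: the sums were 254.3 to 481 CPM for 20 hepatocyte genes, 31.7 to 476 CPM for 10 leukocyte genes, 110.1 to 599.6 CPM for 7 stellate cell genes and 85.7 to 227.6 CPM for 4 cholangiocyte genes. In bulk RNA of this kind, fewer cells of a type and less RNA per cell cannot be told apart.

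Of the 94 P450 genes, 17 had no count in any library and 13 more had at most 3 counts in each. The limit for testing, 0.5 CPM in 1 or more libraries, was reached by 52 members, which were compared between the ages, and 42 were not compared. Those 52 comprised all 3 of the endothelial genes, 29 of 47 hepatocyte-type genes, all 14 genes of several tissues, Cyp4f18 and 5 of the 29 remaining genes. Among them, 8 reached 0.5 CPM in young libraries only and 4 in aged libraries only, so that their differences follow in part from the filter.

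Cyp4b1, a P450 best known from the lung that hydroxylates fatty acids and activates the plant toxin ipomeanol, was by far the most abundant member. Its FPKM, a level scaled to transcript length and library size, was 1613 ± 333 (SD, n = 3) in young and 969 ± 122 (SD, n = 3) in aged ECs. With a mean of 1291 FPKM it ranked 38 among the 24346 genes with an FPKM value, and its rank in single libraries ran from 19 to 62. The next member, Cyp2d22, had a mean of 61.5 FPKM at rank 1537, a level 21.0 times lower. It was followed by Cyp20a1, an orphan P450 of unassigned substrate, at 49.7 FPKM, the aryl hydrocarbon receptor target Cyp1a1 at 47.4 FPKM, the retinoid-, steroid- and hydrocarbon-oxidizing Cyp1b1 at 35.4 FPKM and the retinoic acid hydroxylase Cyp26b1 at 22.5 FPKM. Cyp2j6 (19.2 FPKM) and Cyp2j9 (13.3 FPKM), of a subfamily that makes epoxides from arachidonic acid, and Cyp4f13 (15.7 FPKM) and Cyp4f16 (13.1 FPKM), of a subfamily of fatty acid and eicosanoid hydroxylases, completed the 10 members with a mean of at least 10 FPKM. None of these 10 was of the hepatocyte type in the division used here, which was made with earlier results of these data known. The highest hepatocyte-type level was that of Cyp2e1, the ethanol- and acetaminophen-oxidizing P450, at 6.30 FPKM, and 5 of the 47 hepatocyte-type genes had a mean of at least 1 FPKM. Neighbours in this order from Cyp2d22 to Cyp26b1 overlapped in their range over the 6 libraries.

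**Figure D1:**
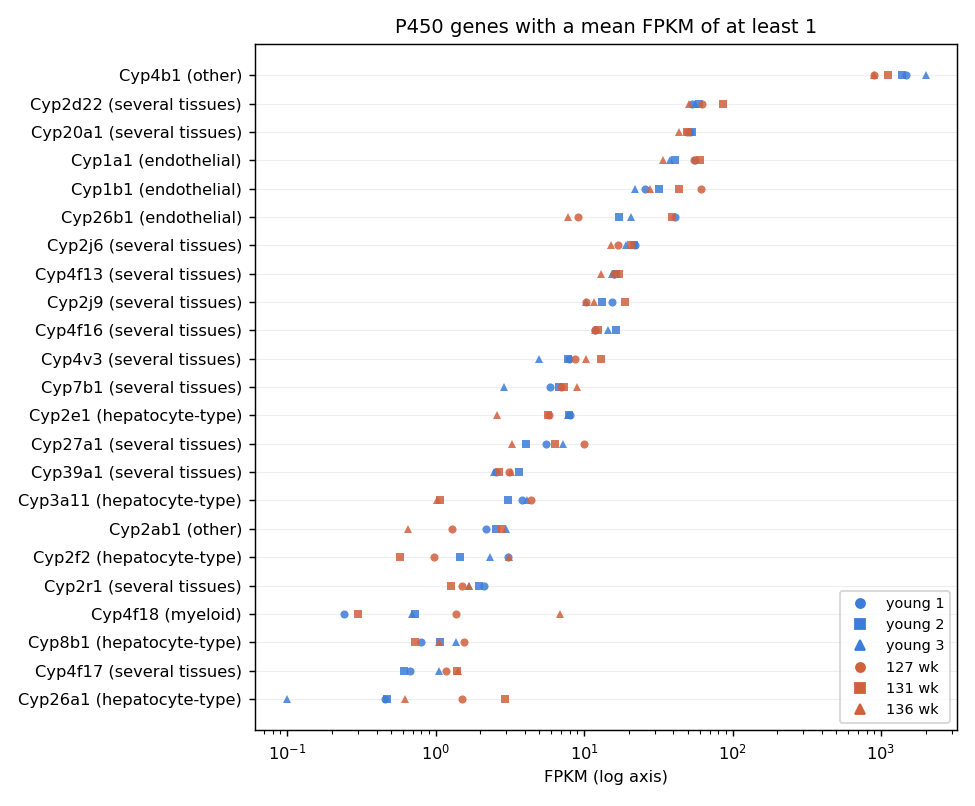
Levels of the 23 P450 genes with a mean of at least 1 FPKM, in FPKM on a log axis, with 1 point per library (blue, young; red, aged) and the class of each gene in brackets. Cyp4b1 stands alone at 1291 FPKM on average, the endothelial-type genes lie among the next 5, and the hepatocyte-type genes have means at or below 6.30 FPKM.

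In the comparison of aged with young ECs, 0 of the 52 tested P450 genes passed an adjusted p of 0.05 with the quasi-likelihood test of edgeR and Benjamini-Hochberg adjustment over all 14612 genes tested, and the smallest adjusted p among them was 0.279. Across all genes tested, 0% passed as higher and 0% as lower in aged ECs. At an unadjusted p below 0.05, 4 P450 genes were higher in aged ECs (Cyp2u1, Cyp26a1, Cyp4v3 and Cyp1b1), against 8.32% of all genes, and 6 were lower (Cyp4b1, Cyp2c70, Cyp2d26, Cyp2a12, Cyp2c50 and Cyp2d10), against 4.32% of all genes. In 7 members every aged library lay above every young one, against 9.62% of all genes, and in 7 every aged library lay below, against 8.33%. By the Wald test of DESeq2 1 member, Cyp4b1, was lower in aged ECs at an adjusted p of 0.0174 and 0 were higher, where 1.11% and 3.46% of the 13979 genes with an adjusted p passed in these directions. The log2 fold change was above 0 in 21 and below 0 in 31 of the 52 members, with a median of -0.18 against 0.01 over all genes tested. These counts describe the members that were high enough to be tested and not all 94. On the authors' FPKM values, tested with limma as log2(FPKM + 0.1), the count of members lower at an unadjusted p below 0.05 was 10 instead of 6. The share of all genes lower on this scale was not counted, so this change was not set against it. The log2 fold changes on this scale were -0.72 for Cyp4b1, -0.82 for Cyp2e1, 0.67 for Cyp1b1, 1.08 for Cyp2u1, 0.63 for Cyp4v3 and 1.93 for Cyp26a1, each in the direction of the count table.

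**Figure D2:**
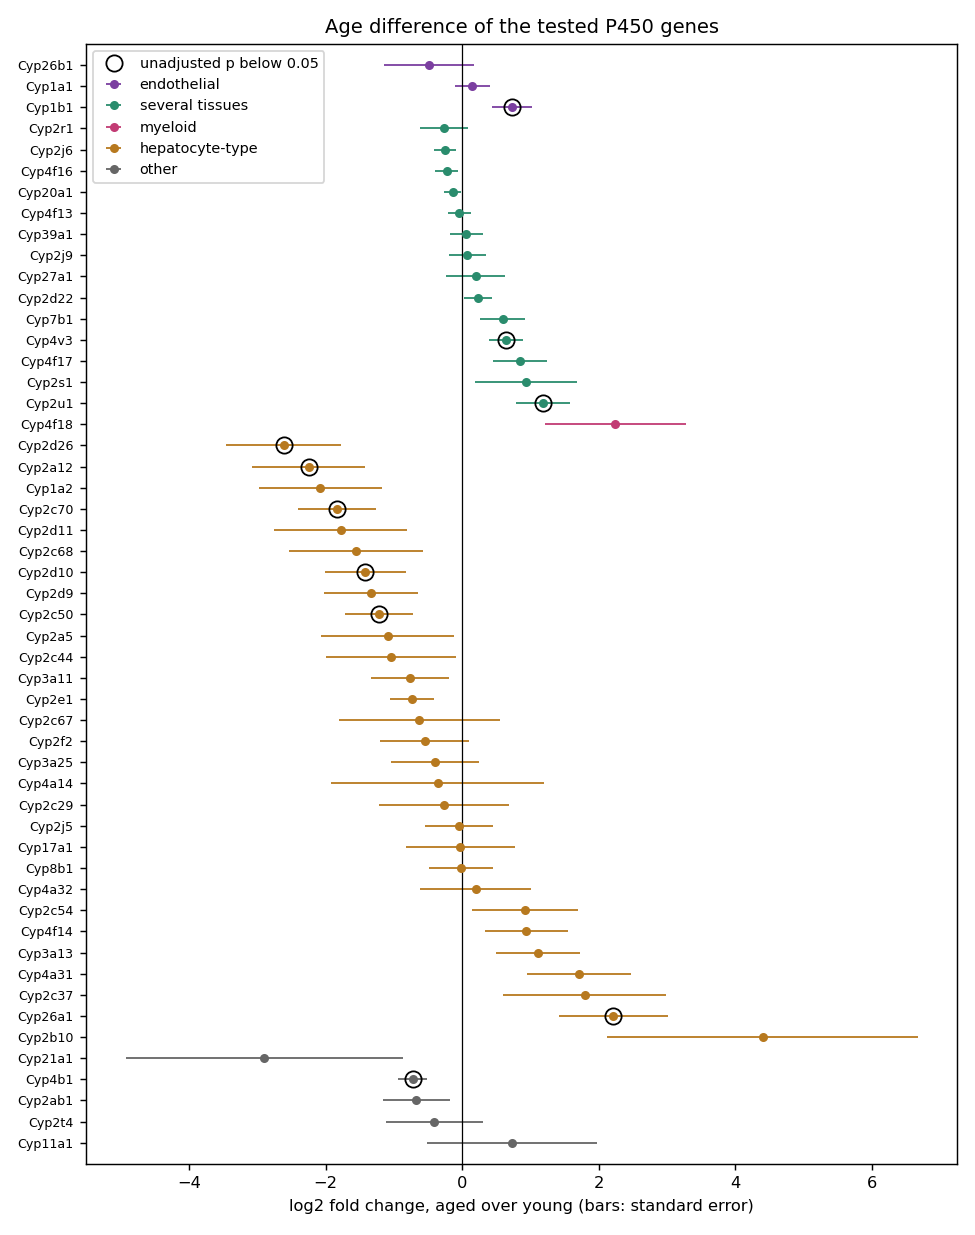
Log2 fold change of aged over young ECs for the 52 tested P450 genes, grouped and coloured by class, with bars for the standard error and a ring around the 10 genes with an unadjusted p below 0.05. The rings in the hepatocyte-type class lie mostly on the side of lower values in aged ECs, 5 of 6, and 0 of the 52 genes passed adjustment.

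The level of Cyp4b1, at mm9 chr4:115297303-115320322 on the minus strand, was 2548, 2385 and 3392 CPM in the 3 young libraries and 1538, 1932 and 1569 CPM in the 127-, 131- and 136-week libraries. Every aged library lay below every young one. The means were 2775 ± 540 and 1680 ± 219 CPM (SD, n = 3 each), with a log2 fold change of -0.72 ± 0.22 (SE) and an adjusted p of 0.279 (edgeR). Within the library clusters the log2 ratio was -1.14 for the pair with few ribosomal counts and -0.49 for the other 4 libraries. Cyp4b1 alone took 72.5%, 73.6% and 81.5% of all P450 CPM in young ECs and 60.9%, 62.8% and 69.1% in aged ECs, so the sum over all P450 genes (3239 to 4163 CPM in young, 2271 to 3078 CPM in aged ECs) mostly measured this gene. Without it the sum was 969, 853.9 and 771.5 CPM in young and 987.5, 1146 and 702.6 CPM in aged ECs, and the ages overlapped. Several markers of liver sinusoidal ECs were lower in the same aged libraries. The log2 fold change was -1.70 for the hyaluronan scavenger receptor Stab2 and -1.46 for the lectin Clec4g. That of Lyve1, also on the marker list, was 0.58, and its ages overlapped. For the pan-endothelial adhesion gene Pecam1 it was 0.01, but for Kdr and Tek of the same list it was -0.65 and -0.38, without overlap. Of the 12 endothelial markers, 7 were lower and 0 higher at an unadjusted p below 0.05, against 4.32% and 8.32% of all genes tested. The part of these markers in the Cyp4b1 difference was not tested.

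Of the endothelial-type genes, Cyp1b1 was the one with a low unadjusted p. Its level was 132.2, 165.5 and 112.3 CPM in young and 313.7, 223.3 and 142.8 CPM in aged ECs, from the youngest to the oldest aged mouse. The 136-week library lay below young replicate 2, so the ages overlapped. The log2 fold change was 0.73 ± 0.29 (SE), with an unadjusted p of 0.0411 and an adjusted p of 0.374 (edgeR), and it was 1.48 in the pair of libraries with few ribosomal counts and 0.30 in the other 4. Cyp1a1, the classical readout of the aryl hydrocarbon receptor, was at 140.7, 102.9 and 92.9 CPM in young and 136.8, 150.8 and 85.6 CPM in aged ECs. Its ranges overlapped nearly wholly, with a log2 fold change of 0.15 ± 0.25 (SE) and an adjusted p of 0.874 (edgeR), and the 2 library clusters gave 0.56 and -0.04. The hepatocyte-type relative Cyp1a2, by contrast in level, reached at most 1.34 CPM in any library.

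**Figure D3:**
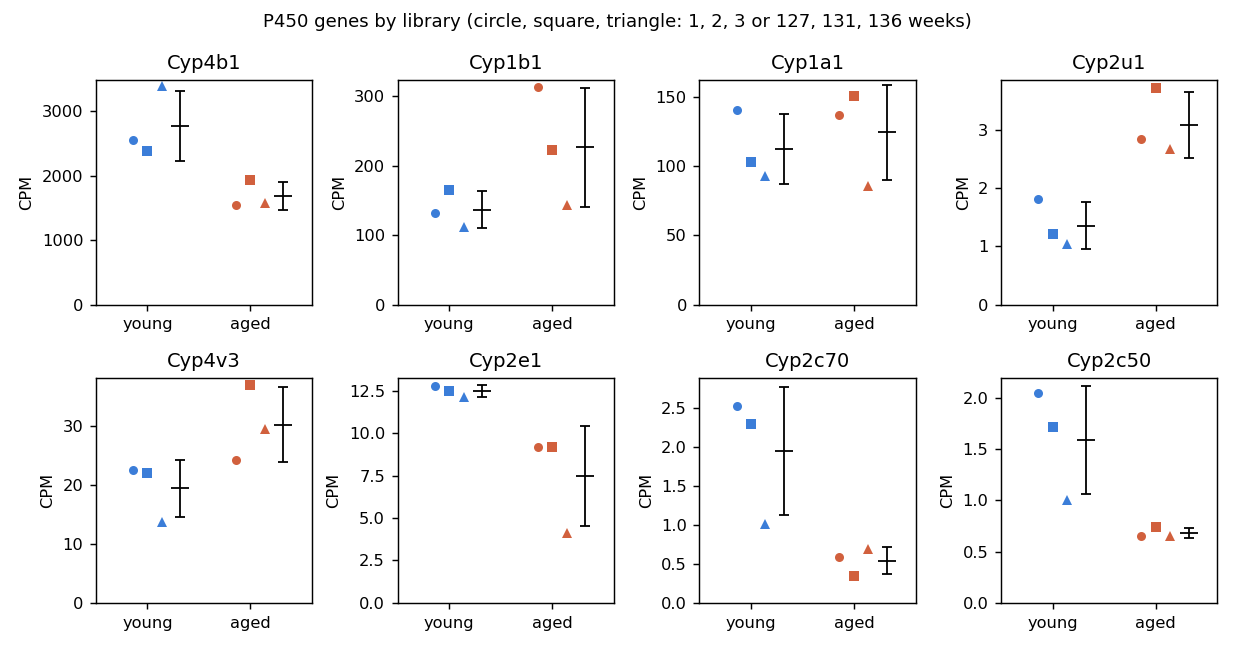
Levels of 8 P450 genes in CPM, with 1 point per library (blue, young; red, aged) and the mean and SD of each age in black. The aged points lie below the young ones for Cyp4b1, Cyp2e1, Cyp2c70 and Cyp2c50 and above them for Cyp2u1 and Cyp4v3, whereas Cyp1a1 and Cyp1b1 overlap.

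Other genes known to respond to the aryl hydrocarbon receptor were set beside Cyp1a1 and Cyp1b1. Of the 5 on this list, 2 were higher and 1 lower in aged ECs at an unadjusted p below 0.05. By the same criterion, 8.32% of all genes tested were higher and 4.32% lower. In edgeR, 0 of the 5 passed adjustment. Tiparp, an ADP-ribosyltransferase that restrains the receptor, had a log2 fold change of 1.09 ± 0.28 (SE) and adjusted p-values of 0.25 (edgeR) and 0.0186 (DESeq2), but 0.18 in the pair of libraries with few ribosomal counts and 1.47 in the other 4. For the quinone reductase Nqo1, also a target of other stress pathways, the log2 fold change was 1.22 ± 0.31 (SE), with adjusted p-values of 0.243 (edgeR) and 0.012 (DESeq2). The receptor repressor Ahrr was at 0.521, 0.496 and 0.0315 CPM in young and 1.58, 1.71 and 0.690 CPM in aged ECs, so that the ages did not overlap, with an unadjusted p of 0.0715 (edgeR). Lrat, which is better known for storing retinol as ester in stellate cells, was the gene in the lower direction, with a log2 fold change of -2.19 ± 0.66 (SE) and adjusted p-values of 0.286 (edgeR) and 0.0194 (DESeq2). The receptor gene Ahr itself was at 140.3 to 183.7 CPM in young and 146.5 to 214.6 CPM in aged ECs.

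Of the 3 retinoic acid hydroxylases of the Cyp26 family, Cyp26b1 and Cyp26a1 were high enough to be tested, whereas Cyp26c1 had 1 to 8 counts per library and was not. Retinoic acid induces Cyp26a1 through receptor sites close to its start. The 250 bases before the RefSeq start of each tested gene are shown because they differ in a match to an exact form of such a site. They come from the RefSeq promoter table (build GRCm38.p6) and were placed by exact match to mm9 at chr19:37772048-37772297 (plus strand) for Cyp26a1 and chr6:84543805-84544054 (minus strand) for Cyp26b1. The RefSeq start is that of the GENCODE gene for Cyp26a1 and lies 64 bases upstream of it for Cyp26b1. Capitals mark the match to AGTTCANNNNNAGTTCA, a direct repeat with a spacer of 5 bases, searched on both strands.
Cyp26a1: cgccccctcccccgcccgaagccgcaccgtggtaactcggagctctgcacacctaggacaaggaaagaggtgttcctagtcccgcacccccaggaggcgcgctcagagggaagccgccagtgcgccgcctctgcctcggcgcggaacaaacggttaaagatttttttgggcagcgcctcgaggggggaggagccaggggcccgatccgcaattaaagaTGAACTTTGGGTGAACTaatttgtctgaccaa
Cyp26b1: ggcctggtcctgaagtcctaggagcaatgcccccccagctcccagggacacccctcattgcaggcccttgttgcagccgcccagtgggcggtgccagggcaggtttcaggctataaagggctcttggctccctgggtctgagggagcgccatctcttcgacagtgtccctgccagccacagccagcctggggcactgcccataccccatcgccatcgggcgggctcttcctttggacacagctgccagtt
The match in Cyp26a1 lies on the reverse strand, and no match to these letters was found in the window of Cyp26b1. Of 27025 genes with a promoter in the table, 7 held the motif (0.0259%), and Cyp26a1 was the 1 gene among the 73 P450 members matched to a promoter. This share describes the exact letters searched. These are the letters of the Cyp26a1 site itself, so its match is no test, and neither is the contrast with Cyp26b1. Looser forms of the receptor site were not searched, so whether the Cyp26b1 window holds such a site was not tested.

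Cyp26b1 was at 197.3, 81.3 and 96.3 CPM in young and 42.7, 187.1 and 37.4 CPM in aged ECs. Young replicate 1 and the 131-week library were high and the 127- and 136-week libraries were low, so the spread within each age exceeded the difference between the means (log2 fold change -0.49 ± 0.65 (SE), adjusted p = 0.825, edgeR). The same 2 libraries were the highest for Dhrs3, the retinaldehyde reductase, at 923.6 and 828.3 CPM against 327.1 to 685.5 CPM in the other 4. They were also the highest for the retinoic acid receptor genes Rarb, at 177.8 and 185.9 CPM against 90.6 to 148.4 CPM, and Rarg, at 79.9 and 87.2 CPM against 32.2 to 71.2 CPM. These genes were picked out after their values were seen, and the 4 genes share libraries and scaling. Cyp26a1, which is best known from hepatocytes, was at 0.856, 0.767 and 0.158 CPM in young and 2.41, 4.82 and 1.01 CPM in aged ECs. Every aged library lay above every young one, with a log2 fold change of 2.21 ± 0.80 (SE), an unadjusted p of 0.027 and an adjusted p of 0.343 (edgeR). The ratio was in the same direction in both library clusters, at 3.93 and 1.85 on the log2 scale.

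The list of 15 retinoid genes gave 3 genes higher and 0 lower in aged ECs at an unadjusted p below 0.05 among 14 tested. The shares of all genes tested were 8.32% and 4.32%. In edgeR, 0 of the list passed adjustment. Aldh1a1, which oxidizes retinaldehyde to retinoic acid, had a log2 fold change of 1.16 ± 0.42 (SE) with overlapping ages and an adjusted p of 0.341 (edgeR). The retinol dehydrogenase gene Rdh10 had a log2 fold change of 0.46 ± 0.19 (SE) and an adjusted p of 0.385 (edgeR). Stellate cells also express several of these genes. The 7 stellate markers summed to 110.1 to 268.8 CPM in young and 173.7 to 599.6 CPM in aged ECs, mostly from Reln, and without Reln to 40.2 to 113.8 CPM in young and 30.4 to 104.2 CPM in aged ECs. Their part in these differences was not tested.

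**Figure D4:**
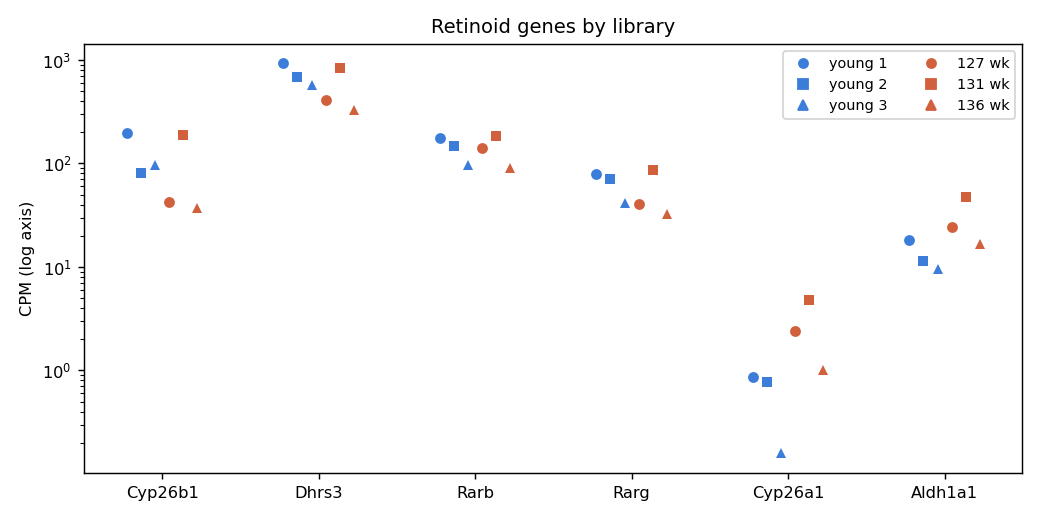
Levels of Cyp26b1, Cyp26a1 and 4 further retinoid genes in CPM on a log axis, with 1 point per library (blue, young; red, aged). Young replicate 1 and the 131-week library are the 2 highest for Cyp26b1, Dhrs3, Rarb and Rarg, whereas the 3 aged libraries lie above the young ones for Cyp26a1.

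The 14 P450 genes of several tissues were all tested, with 2 higher and 0 lower in aged ECs at an unadjusted p below 0.05. Among all genes tested, 8.32% were higher and 4.32% lower by this criterion. The median log2 fold change of the 14 genes was 0.14. Cyp2u1, a hydroxylase of long-chain fatty acids at mm9 chr3:130993409-131006145 on the minus strand, was at 1.82, 1.22 and 1.04 CPM in young and 2.85, 3.73 and 2.68 CPM in aged ECs. All 3 aged libraries lay above all young ones, and the log2 fold change was 1.18 ± 0.40 (SE) with an unadjusted p of 0.0195 and an adjusted p of 0.325 (edgeR). Its exons overlap those of 4930534D22Rik on the other strand, and without a stated strand setting the reads of both cannot be told apart. The same holds for Cyp2s1 with Gm17445, Cyp2f2 with Gm15883 and Cyp4f18 with Zfp961. Cyp4v3, a fatty acid hydroxylase, was at 22.4, 21.9 and 13.8 CPM in young and 24.2, 36.9 and 29.4 CPM in aged ECs. The ages were close but did not overlap, with a log2 fold change of 0.64 ± 0.25 (SE), an unadjusted p of 0.0373 and an adjusted p of 0.369 (edgeR). Cyp4v3 shares exonic positions with the prekallikrein gene Klkb1, which itself had no more than 0.893 CPM.

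The 6 more abundant genes of several tissues had small differences beside their errors. The log2 fold change was 0.23 ± 0.21 (SE) for Cyp2d22, -0.14 ± 0.12 for Cyp20a1, -0.25 ± 0.16 for Cyp2j6, 0.08 ± 0.28 for Cyp2j9, -0.04 ± 0.16 for Cyp4f13 and -0.23 ± 0.17 for Cyp4f16, with adjusted p-values of 0.583 to 0.953 (edgeR). Cyp20a1 was at 73.2, 75.1 and 72.1 CPM in young and 69.5, 69.6 and 61.5 CPM in aged ECs. Its ages did not overlap although the means, 73.4 ± 1.52 and 66.9 ± 4.63 CPM (SD, n = 3 each), were near each other. Cyp27a1, the mitochondrial sterol hydroxylase of bile acid and oxysterol formation, was at 10.0, 7.26 and 13.8 CPM in young and 18.1, 11.7 and 5.81 CPM in aged ECs, with overlap. Cyp2s1, which is inducible through the aryl hydrocarbon receptor, was at 2.75, 0.316 and 0.694 CPM in young and at 2.34, 2.49 and 2.40 CPM in aged ECs. For Cyp2s1 it was thus young replicate 1 that made the ages overlap.

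Hepatocyte-type P450 genes were present at a low level in every library. Their sum over 47 genes was 53.2, 40.3 and 49.4 CPM in young and 45.4, 29.1 and 29.2 CPM in aged ECs, and the 127-week library lay within the young range. The log2 ratio of the means was -0.46, but -0.12 in the pair of libraries with few ribosomal counts and -0.68 in the other 4. The sum of the 20 hepatocyte markers was 481, 352.5 and 383 CPM in young and 332.1, 254.3 and 386.7 CPM in aged ECs, with a log2 ratio of -0.32. The transferrin gene Trf made up 30.3% to 38.4% of this sum in young and 41.4% to 62.9% in aged ECs. Without it the other 19 markers summed to 308.8, 217.1 and 267.1 CPM in young and 147.5, 148.9 and 143.5 CPM in aged ECs, which did not overlap, with a log2 ratio of -0.85. As a percentage of all 20 markers, the hepatocyte-type P450 genes came to 11.1%, 11.4% and 12.9% in young and 13.7%, 11.5% and 7.55% in aged ECs, which overlapped. As a percentage of the 19 markers without Trf, an alternative chosen after the data were seen, they came to 17.2%, 18.5% and 18.5% in young and 30.8%, 19.6% and 20.3% in aged ECs, which did not overlap. The direction of this percentage thus depended on 1 marker gene. The part of hepatocyte RNA in the differences of single hepatocyte-type genes was not tested.

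**Figure D5:**
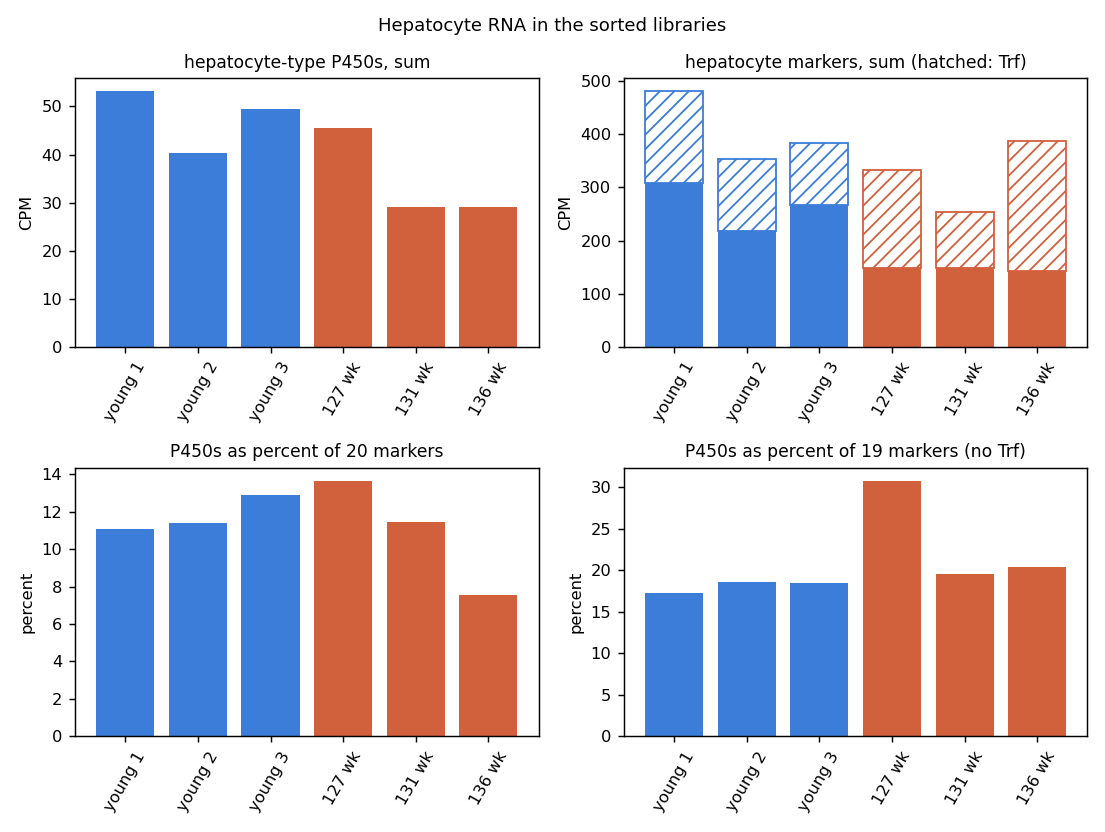
Summed CPM of the 47 hepatocyte-type P450 genes (upper left), summed CPM of 20 hepatocyte marker genes with the share of Trf hatched (upper right), and the first as a percentage of all 20 markers (lower left) and of the 19 without Trf (lower right), with 1 bar per library (blue, young; red, aged). The percentage at 136 weeks is the lowest of all, 7.55%, with Trf but lies above the 3 young libraries, at 20.3%, without it.

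Of the 29 hepatocyte-type genes tested, 1 was higher and 5 were lower in aged ECs at an unadjusted p below 0.05, where 8.32% and 4.32% of all genes tested were, and the median log2 fold change was -0.55. Of the 5 lower genes, Cyp2d26 and Cyp2a12 reached the limit for testing in young libraries only, so the filter bore on their direction. With 0.5 CPM required in 3 libraries, the number of lower genes over all P450 members was 4 instead of 6. The share of all genes lower under that limit was not counted. Among the 19 tested hepatocyte markers, 9 were lower and 1 was higher by the same criterion, with a median log2 fold change of -0.92. Cyp2c70, which makes muricholic acids in the mouse, was at 2.53, 2.30 and 1.01 CPM in young and 0.585, 0.350 and 0.690 CPM in aged ECs, without overlap. Its log2 fold change was -1.83 ± 0.57 (SE), with an unadjusted p of 0.0136 and an adjusted p of 0.297 (edgeR), and it was -0.79 and -2.22 within the library clusters. Cyp2d26 was at 1.30, 0.496 and 0.757 CPM in young and 0.241, 0.0389 and 0.122 CPM in aged ECs, so that the 131-week library held 1 count of this gene. Its log2 fold change was -2.62 ± 0.84 (SE), with an adjusted p of 0.308 (edgeR). Cyp2a12, a steroid hydroxylase, and Cyp2c50, an arachidonic acid epoxygenase, were also without overlap, with log2 fold changes of -2.25 ± 0.82 and -1.22 ± 0.49 (SE) and adjusted p-values of 0.345 and 0.375 (edgeR). Cyp2d10 overlapped, at a log2 fold change of -1.42 ± 0.59 (SE) and an adjusted p of 0.386 (edgeR). These genes lie in clusters of close relatives, and 23.7% of the 75-base stretches of Cyp2d10, 17% of those of Cyp2c50 and 14.5% of those of Cyp2a12 also occur in other transcripts, so reads may be split among them. Of Cyp2c70 0% and of Cyp2d26 3.95% of such stretches are shared.

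The most abundant hepatocyte-type gene, Cyp2e1, was at 12.8, 12.5 and 12.1 CPM in young and 9.18, 9.18 and 4.10 CPM in aged ECs. The young libraries were nearly equal and every aged one lay below them, with a log2 fold change of -0.73 ± 0.32 (SE), an unadjusted p of 0.0555 and an adjusted p of 0.407 (edgeR). Cyp3a11, the main drug-metabolizing 3A gene of mouse liver, was at 7.37, 5.87 and 7.67 CPM in young and 8.29, 2.06 and 1.95 CPM in aged ECs. The 127-week library was thus the highest of all 6 and the other 2 aged libraries the lowest, and the log2 ratio was 0.11 in the pair with few ribosomal counts and -1.72 in the other 4. Over 9 P450 genes known from the pericentral zone the sum was 26.5, 23.2 and 23.1 CPM in young and 22.97, 12.9 and 8.89 CPM in aged ECs. Most of this sum came from Cyp2e1 and Cyp3a11. Over the periportal genes Cyp2f2 and Cyp17a1 it was 5.58, 3.02 and 4.70 CPM in young and 2.75, 1.52 and 5.40 CPM in aged ECs. The log2 fold change was below 0 in 6 and above 0 in 2 of the 8 pericentral genes tested. At an unadjusted p below 0.05, 1 of them was lower and 0 were higher, against 4.32% and 8.32% of all genes tested. Of the 2 periportal genes neither was. Cyp8b1, which directs bile acid synthesis to cholic acid, differed by -0.01 ± 0.47 (SE) on the log2 scale.

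A few hepatocyte-type genes lay in the other direction. In 3 of the 29 tested, every aged library lay above every young one, against 9.62% of all genes tested. In 5 every aged library lay below, against 8.33%. Besides Cyp26a1, all aged libraries lay above all young ones for Cyp3a13, a P450 also known from the intestine, at 1.12, 0.632 and 0.284 CPM in young and 1.17, 1.63 and 1.58 CPM in aged ECs (log2 fold change 1.11 ± 0.61 (SE), adjusted p = 0.514, edgeR). Its ages were apart only narrowly, at 1.12 against 1.17 CPM. Cyp4a31, of the fatty acid hydroxylase family induced by Ppara, was at 0.0902 to 0.158 CPM in young and 0.284 to 0.550 CPM in aged ECs (log2 fold change 1.72 ± 0.76 (SE), adjusted p = 0.413, edgeR), within a few counts of the floor in the young libraries. The phenobarbital-inducible Cyp2b10 had 0, 0 and 3 counts in young and 0, 0 and 62 counts in aged ECs, so that its level rested on the 136-week library. Both Cyp4a31 and Cyp2b10 reached the limit for testing in aged libraries only, so the filter bore on their direction. Cyp2c29 and Cyp4a32 had spreads within each age that exceeded the difference, with log2 fold changes of -0.26 ± 0.95 and 0.20 ± 0.81 (SE). Of 10 hepatocyte P450 genes known to be female-predominant, 5 had 0 counts in all 6 libraries and 2 more had at most 3 counts in each. Over all 47 hepatocyte-type genes these numbers were 7 and 6, and over all 24421 genes 5932 and 1835. The male-type genes Cyp2d9 (0.233 to 1.86 CPM) and Cyp7b1 (5.87 to 18.4 CPM), an oxysterol hydroxylase also found outside the liver, were detected in every library.

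Cyp4f18, a leukotriene-hydroxylating P450 of neutrophils and other myeloid cells, was at 0.447, 1.13 and 1.23 CPM in young and 2.17, 0.467 and 10.7 CPM in aged ECs. The 136-week library was far above all others and the 131-week library lay within the young range. The log2 fold change was 2.24 ± 1.04 (SE) with an adjusted p of 0.431 (edgeR), and it was 0.50 without the 136-week library. Summed markers of leukocytes stood in the same order among the aged libraries, at 172.9, 33.8 and 476 CPM, against 57.5, 31.7 and 69.7 CPM in the young ones, and without Lyz2, the most abundant of them, at 70.0, 14.4 and 149 CPM against 27.1, 16.5 and 38.8 CPM. All 10 leukocyte markers had a log2 fold change above 0, and 6 of them had an unadjusted p below 0.05, against 8.32% of all genes tested. Their part in the Cyp4f18 difference was not tested.

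Genes that serve P450 enzymes in general showed few differences of low p. Of 9 electron-transfer partners and associated proteins, 0 had an unadjusted p below 0.05 in either direction. Among all genes tested, the shares were 8.32% higher and 4.32% lower. Por was at 139.4, 160.7 and 266.4 CPM in young and 146.9, 210.3 and 275.6 CPM in aged ECs, with a log2 fold change of 0.16 ± 0.31 (SE) that was -0.86 in the pair of libraries with few ribosomal counts and 0.70 in the other 4. The log2 fold change of the electron donor Cyb5a was -0.11 ± 0.17 and that of its reductase Cyb5r3 was 0.12 ± 0.17 (SE). Of 12 genes of heme synthesis and breakdown, 0 had an unadjusted p below 0.05, with log2 fold changes of 0.21 ± 0.16 for Alas1, the rate-limiting enzyme of heme synthesis, and 0.61 ± 0.31 (SE) for the heme oxygenase Hmox1. The Hmox1 difference did not hold in both library clusters, at -0.30 and 1.15. Of 19 transcription regulators of P450 genes, 17 were tested, and 1 was higher and 0 were lower at an unadjusted p below 0.05. This was Nr1h3, the oxysterol receptor, at 14.9, 16.1 and 14.2 CPM in young and 38.0, 15.5 and 28.5 CPM in aged ECs (log2 fold change 0.86 ± 0.31 (SE), adjusted p = 0.344, edgeR). The xenobiotic receptors of hepatocytes were near the limit of detection: Nr1i2 reached at most 0.413 CPM and Nr1i3 at most 0.817 CPM. The hepatocyte factor Hnf4a was at 2.14 to 2.75 CPM in young and 0.609 to 2.1 CPM in aged ECs.

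The list of 6 genes around the epoxides that P450 enzymes form gave 2 genes higher and 0 lower at an unadjusted p below 0.05. Among all genes tested, 8.32% were higher and 4.32% lower. The microsomal epoxide hydrolase gene Ephx1 was at 119.8, 116.0 and 101.4 CPM in young and 158.9, 180.2 and 186.2 CPM in aged ECs. The replicates of each age lay close together and did not overlap with the other age, and the log2 fold change of 0.64 ± 0.14 (SE) was nearly the same in both library clusters, at 0.65 and 0.64. Its adjusted p was 0.227 in edgeR and 0.00646 in DESeq2. Pla2g4a, the phospholipase that releases arachidonic acid, was at 1.12, 0.677 and 0.599 CPM in young and 3.37, 2.92 and 6.66 CPM in aged ECs, with a log2 fold change of 2.43 ± 0.49 (SE) and adjusted p-values of 0.196 (edgeR) and 7.11e-04 (DESeq2). The soluble epoxide hydrolase gene Ephx2 differed by 0.01 ± 0.49 (SE) on the log2 scale.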

How the data were processed

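RNA of sorted CD31+CD45- liver cells from 3 young and 3 aged mice was read as single-end sequences. The authors called bases with CASAVA (1.8.2), mapped reads to mm9 with TopHat2 (2.1.0) and deposited whole-number read counts per gene symbol, without normalization. A deposited FPKM table came from the authors' run of Cuffnorm (2.2.1). The counting program, its annotation and its use of strand are not given in the sources used here. Total counts of 23001556 to 31651817 put 3 counts at 0.0948 to 0.130 CPM, which covers counting error only, since reads are not independent molecules.

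Genes with at least 0.5 CPM in at least 1 sample (14612) were normalized by TMM, and aged ECs were compared with young ECs by the quasi-likelihood test of edgeR (4.0.16) under R 4.3.3, and p-values were adjusted by Benjamini-Hochberg and called at 0.05. Each standard error is the size of the log2 fold change over the root of F. Printed CPM values use the TMM-scaled library sizes. Alternatives were other scalings, no filter, DESeq2 (1.42.0), limma-voom (limma 3.58.1), limma on log2(FPKM + 0.1) and log2(FPKM + 1) for genes of at least 0.1 FPKM, a term for the library cluster, and the removal of each mouse in turn. The test was checked on simulated counts with differences larger than most of those reported here, so its calls of smaller ones were not checked. Positions are those of GENCODE on mm9.

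The members, classes and gene lists were chosen with earlier results of these data known. Named are all endothelial-type members, the 10 with the highest mean FPKM, the 10 hepatocyte-type members with the highest mean CPM, all with an unadjusted p below 0.05, Cyp4f18, Cyp2u1, Cyp2s1 and Cyp27a1, all without overlap and with a log2 fold change beyond 1, and a fixed set of genes around them, of which 1 is not reported here. Members named outside this rule (Cyp1a2, Cyp2b10, Cyp2d9, Cyp7b1, Cyp17a1) were chosen after their values were seen. No 2 libraries of an age were alike within counting noise (smallest chi-square per degree of freedom 19.9).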

Additional observations from a re-analysis of the deposited data

How the results depend on the processing

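No P450 gene passed adjustment as higher in aged ECs under any of the 15 alternatives, and 1 passed as lower, Cyp4b1 in DESeq2. The number with an unadjusted p below 0.05 in the lower direction, 6, became 10 with either pseudocount on FPKM. With 1 mouse left out it ran from 1 (without young replicate 1) to 10 (without the 127-week mouse), and that in the higher direction, 4, from 2 (without young replicate 3 or the 131-week mouse) to 5. Shares of all genes on FPKM or with 1 mouse left out were not counted, so these changes were not set against them. Within the pair of libraries with few ribosomal counts the log2 ratio of the summed hepatocyte-type P450 genes was -0.12 and that of the endothelial-type genes 0.71, against 0.24 over all libraries. In the other 4 libraries these ratios were -0.68 and 0.0127. The endothelial-type sums overlapped, at 301.5 to 470.2 CPM in young and 265.9 to 561.2 CPM in aged ECs. The log2 ratio of hepatocyte-type P450 genes as a percentage of hepatocyte markers, -0.11, was 0.38 without the marker Trf, an alternative chosen after the data were seen. With 1 mouse left out, the log2 fold change ran from -1.64 to 0.00588 for Cyp26b1, -0.0118 to 0.36 for Cyp1a1, -6.66e-05 to 0.40 for Cyp2d22, -0.13 to 0.0679 for Cyp4f13, -0.23 to 0.25 for Cyp2j9, -0.37 to 0.25 for Cyp8b1, -0.26 to 1.68 for Cyp4a32, -1.89 to 0.25 for Cyp2c29, -0.24 to 0.53 for Cyp27a1, -0.079 to 0.49 for Por and -0.40 to 0.39 for Ephx2. Scaling by total counts turned Cyp4f13 to 0.0245 and Cyp8b1 to 0.0769. Limma-voom gave -0.0827 for Cyp2j9, 0.0985 for Cyp8b1 and -0.264 for Ephx2. On FPKM, Cyp8b1 was at 0.00729 with a pseudocount of 0.1 and 0.0112 with 1. Ephx2 was at -0.00156 with DESeq2 size factors, -0.00233 without a filter and -0.00203 in DESeq2. The cause of these turns was not tested. Of 714 values of single genes under alternatives, 674 kept direction and side of the threshold, 7 passed it in DESeq2 and 33, in 11 genes, changed direction. As 0 genes passed adjustment in the main comparison, keeping the side of the threshold was mostly given. Hepatocyte-type genes near 1 CPM rest on few counts, which limits their precision.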
